A study of Mus musculus with 4 samples.

Results

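The genes described here encode the subunits of the proteasome and the protein-folding chaperones, and what was measured is how open the chromatin was at the regions linked to them in mouse subcutaneous white fat. They were taken by gene name from the gene table of an ATAC-seq series: names starting Psma to Psmg, Dnaja, Dnajb or Dnajc with a number, names starting Hsp and a further letter or digit, Cct2 to Cct8, and Tcp1. This gave 113 of the 11993 genes of the table, 44 with a proteasome name and 69 with a chaperone name. The name rule also took a few genes with other roles, among them Hspg2 (perlecan, a basement membrane proteoglycan), Hspb11 (an intraflagellar transport protein) and Psmc3ip (a cofactor of meiotic recombination).

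Nuclei came from frozen, ground subcutaneous white fat of 2 male and 2 female wild-type mouse samples, and ATAC-seq marks open chromatin by letting the Tn5 transposase cut and tag accessible DNA. All 4 samples were wild type, and the labels gave no treatment, age or strain. The labels did not say whether the samples were separate animals, so p-values measure only the spread between these samples. In bulk tissue, fewer cells with an open region and a less open region in each cell cannot be told apart.

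The proteasome is the protease that degrades proteins tagged with ubiquitin. Its 20S core is a barrel of alpha and beta subunits, and the 19S regulator unfolds the substrate with a ring of ATPases and holds non-ATPase subunits that bind and trim ubiquitin. Hsp70 proteins bind unfolded stretches with the help of J proteins, Hsp90 finishes the folding of kinases and receptors, and the chaperonins enclose a protein in a ring. The heat shock factor HSF1 induces many chaperone genes in stressed cells, and the factor NFE2L1 (also called NRF1 of the cap'n'collar family) induces the proteasome genes when proteasome activity falls short. In brown adipocytes of the mouse, NFE2L1 is known to keep up proteasome activity in the cold.

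The value used throughout is the peak height, the number of tags stacked at a peak after scaling by a factor per library, which the authors averaged over the regions linked to a gene. Depth in reads was not given in the sources used here. The authors' peak lists held 5484 intervals in male 1 and 4049 in male 2, against 10238 in female 1 and 8022 in female 2. Over all genes the median height was 24.0 in male 1 and 14.7 in male 2, against 38 in female 1 and 30.2 in female 2. Intervals were widest in male 2, with a median of 284 bp, against 171 bp in male 1, 160 bp in female 1 and 165 bp in female 2. Of 11 adipocyte markers, 7 were in the table, and their summed height was 138 in male 1 and 94.6 in male 2, against 263 in female 1 and 232 in female 2. The part that these library differences and the makeup of the tissue had in the results below was not tested.

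Chromatin at the proteasome and chaperone genes was open close to the start of the gene. The nearest linked region lay within 500 bp of the annotated start in 98 of 113 members, or 86.7%, against 66.9% of all genes in the table. The share was 95.5% of the proteasome-named and 81.2% of the chaperone-named members. A peak was called in all 4 libraries for 52 members (46.0%), against 35.9% of all genes, and a peak was called in 1 library for 18 members (15.9%), against 19.8% of all genes. Among genes with a region within 500 bp of the start, the share with a peak in all 4 libraries was 45.9% for the members and 41.1% for all genes.

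By library, the share of members with a called peak was above that of all genes in both males and in female 1, and below it in female 2. A peak was called at 79 members in male 1 (69.9%, against 61.2% of all genes) and at 72 in male 2 (63.7%, against 49.1%). In female 1 the count was 103 (91.2%, against 89.7%), and in female 2 it was 82 (72.6%, against 76.7%). By region, 47 of the 156 separate regions linked to members held a peak in all 4 libraries, which is 30.1%, against 21.9% of all regions linked to a gene. Regions with a peak in both female and no male library numbered 12 among the members' regions (7.69%), against 12.8% of all linked regions. Without male 2, the library with the fewest intervals, 71 member regions held a peak in each of the other libraries. Leaving out a library cannot lower such a count for any set of regions. The matching share over all linked regions is not given here.

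**Figure D1:**
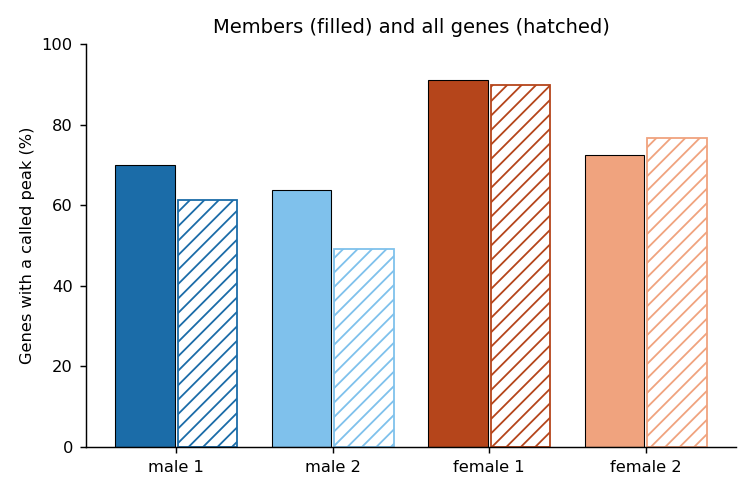
Share of genes with a called peak in each library (percent, y axis), for the 113 proteasome and chaperone members (filled bars) and all 11993 genes (hatched bars). The members' share was higher than that of all genes in male 1 (69.9% against 61.2%), male 2 (63.7% against 49.1%) and female 1 (91.2% against 89.7%) and lower in female 2 (72.6% against 76.7%).

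The members' heights in each library were close to those of genes in general. Their median height was 24.7 in male 1 and 16.2 in male 2, against 38.8 in female 1 and 31.2 in female 2. The median member stood at percentile 52.9 of all genes in male 1 and 57.1 in male 2, against 51.1 in female 1 and 53.7 in female 2. The upper end differed by library: 20 members (17.7%) were in the top 10% of genes in male 2, against 10 in male 1, 15 in female 1 and 13 in female 2. Heights spread widely inside each role, as the plot of heights by role shows.

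**Figure D2:**
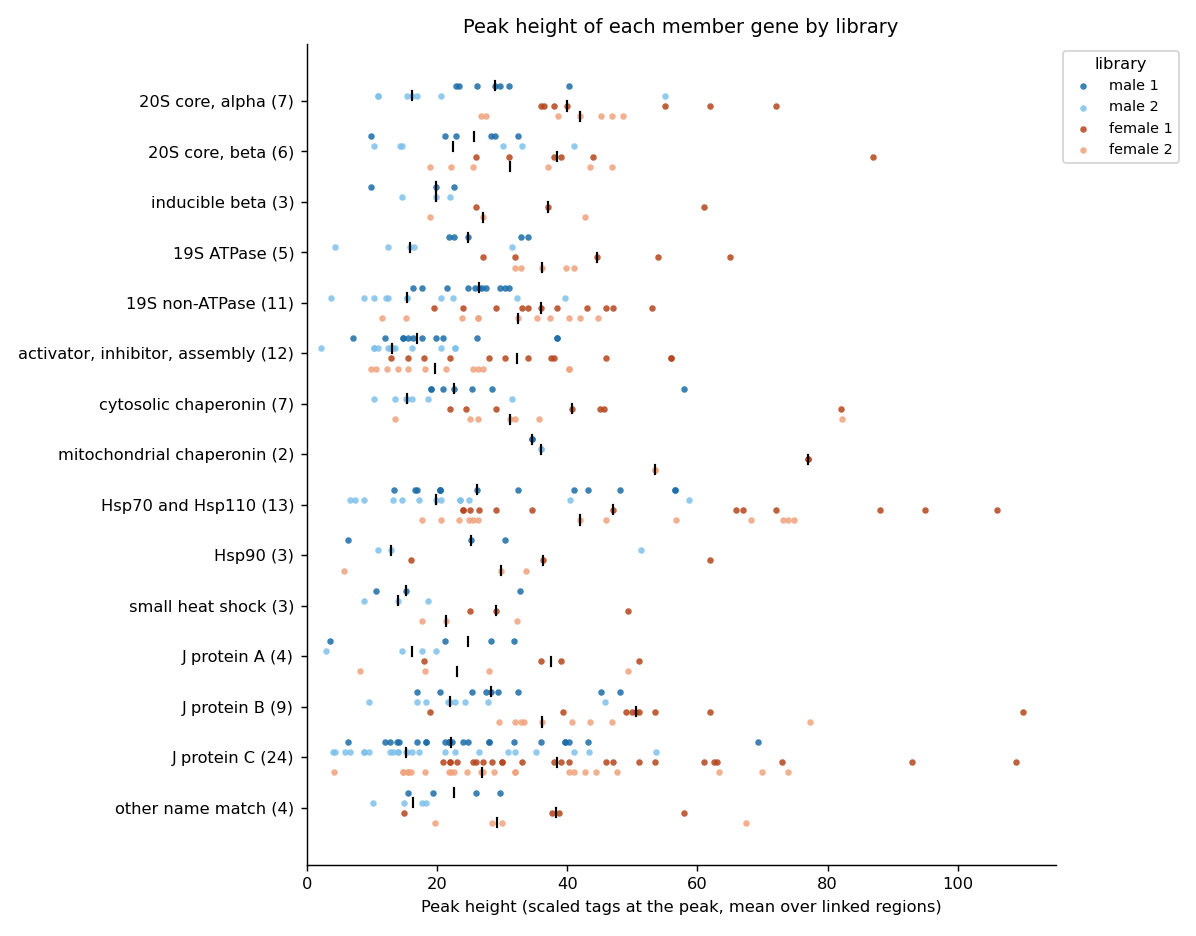
Peak height (scaled tags, x axis) of each member gene in each of the 4 libraries, by role; the number of genes is in brackets, each point is a gene and black ticks are medians. In most roles the points of male 1 and male 2 lie to the left of those of female 1 and female 2, and the medians over all members were 24.7, 16.2, 38.8 and 31.2 in that order.

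Set between the sexes, no member passed the test, and the members' median difference was near that of all genes. With limma on log2(height + 9) over all genes and Benjamini-Hochberg adjustment, 0 members were called lower in males, where 71 genes of the table (0.592%) were, and 0 members were called higher, where 0 genes (0%) were. At an unadjusted p under 0.05, 35 members (31.0%) had lower values in males, against 31.4% of all genes, and 0 had higher values. The median difference of the members, male minus female, was -0.59 on the log2 scale, against -0.63 for all genes, so that the members' median lay 0.04 above it. That difference was 0.07 above the median of all genes for the proteasome-named members and 0.01 above it for the chaperone-named ones. Both males were below both females at 83 members (73.5%), against 76.4% of all genes, and both males were above both females at 0 members, against 0.35% of all genes. With 2 samples a sex, an exact two-sided permutation test of a single gene cannot go below p = 0.33.

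These counts of calls moved with the handling of the libraries. Without male 1, 52 members (46.0%) were called lower in males, against 53.3% of all genes; this fit has 1 male sample, which is assumed to vary as the females do. With the replicate number as a block, 57 members (50.4%) were, against 57.7% of all genes. Without the trend of the variance on height, 4 members (3.54%) were, against 3.47% of all genes. When each library was centred on its median, which removes the general shift of -0.63, 0 members and 0 of all genes were called in either direction. There 52 of the 113 members lay below the median of all genes and 61 above it. The differences below include the general shift: a member at -0.63 lay at the median of all genes, and 1 closer to 0 lay above it.

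**Figure D3:**
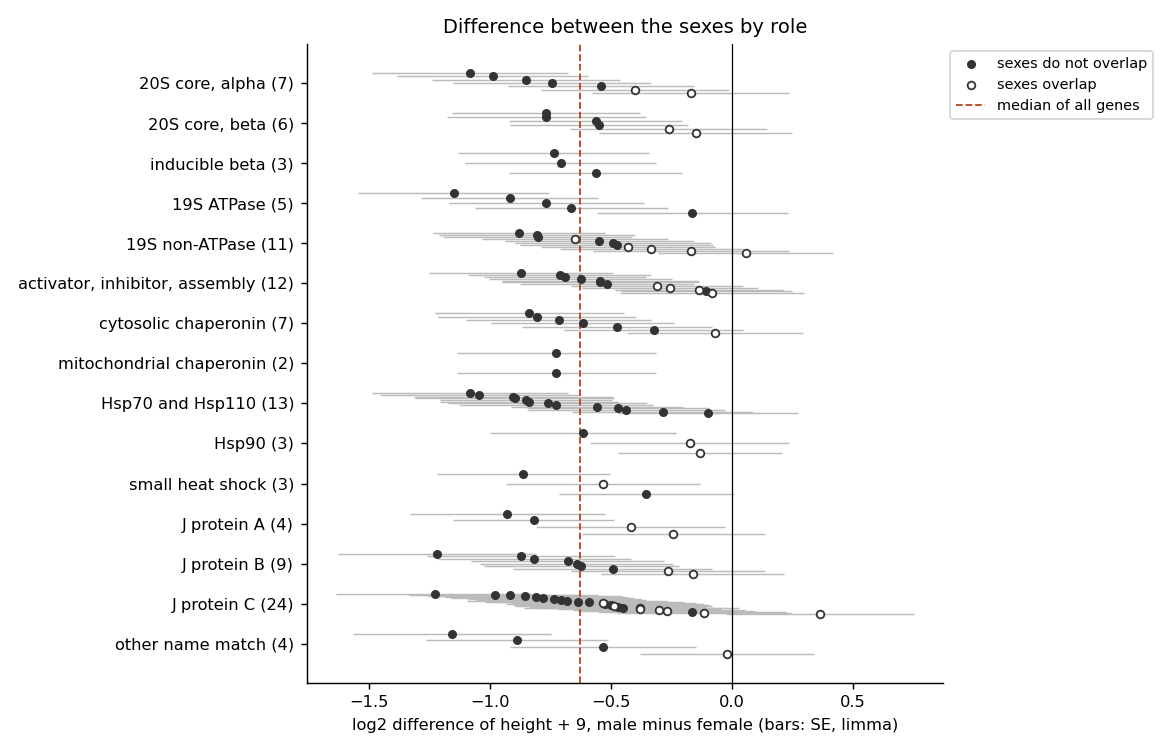
Difference of log2(height + 9), male minus female (x axis), of each member with its standard error from limma, by role; filled points are members whose male and female values do not overlap, open points those that do, and the dashed line is the median of all genes (-0.63). Differences ran from -1.23 at Dnajc3 to 0.36 at Dnajc1, with 2 members above 0.

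In the 20S core, the 7 alpha subunits form the outer rings that gate the barrel. Psma3 had heights of 31.1 and 15.4 in male 1 and male 2, against 72.0 and 45.2 in female 1 and female 2. Its difference was -1.08 ± 0.41 (SE; limma adjusted p = 0.11), the lowest of the alpha subunits, and its male and female values did not overlap. Psma4 had 40.3 and 20.6 in the males, against 62.0 and 48.5 in the females, again without overlap (-0.74 ± 0.41, adjusted p = 0.18). Psma5 was singled out after its values were seen. Its height was 23.3 in male 1 and 55.1 in male 2, against 38 in female 1 and 46.9 in female 2, so that male 2 was the highest of the 4 libraries and male 1 the lowest. Of the 7 alpha genes, 5 (71.4%) had both males below both females, against 76.4% of all genes.

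The beta subunits carry the proteolytic sites, with Psmb6, Psmb7 and Psmb5 holding the caspase-like, trypsin-like and chymotrypsin-like activities. Psmb3, a structural beta subunit, had 32.5 and 33.0 in the males, against 87.0 and 43.6 in the females (-0.77 ± 0.41, adjusted p = 0.17). Psmb1, also without a proteolytic site, had 23 and 14.3 in the males, against 38 and 37 in the females (-0.77 ± 0.39, adjusted p = 0.16). At Psmb6 the sexes overlapped, with 28.3 and 41.1 in the males, against 39.0 and 46.9 in the females (-0.26 ± 0.41, adjusted p = 0.58). The value in male 2 exceeded that in male 1 at 4 of these 6 genes, against 14.3% of all genes. At Psmb3, and at Psmb2 with 29.0 and 30.1, the males were nearly level.

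Immune cells and cells exposed to interferon gamma replace the catalytic beta subunits by inducible ones. Psmb9, 1 of these, had heights of 22.6 and 19.8 in the males, against 61.0 and 27.1 in the females (-0.74 ± 0.40, adjusted p = 0.17). Its only linked region lay 94 bp before its start and was shared with the neighbouring Tap1, the peptide transporter of antigen presentation, so that the height belongs to both genes. Psmb10 had 19.8 and 22.0 in the males, against 37 and 42.7 in the females (-0.71 ± 0.39, adjusted p = 0.18). The region linked to Psmb10 lay 1208 bp inside the gene and was shared with Ctrl and Lcat. Psmb8 was not analysed here. The markers of immune cells in the table were few, 1 each for macrophages (Cd68), T cells (Cd3g) and B cells (Cd79a). At each of these both males were below both females, as at 76.4% of all genes and at every listed marker of the other cell types. Cd68 had 30.4 and 18.8 in the males, against 54.0 and 50.1 in the females.

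The 19S ATPases Psmc2 to Psmc6 pull the substrate into the core, and both males were below both females at 5 of the 5 in the table, where 76.4% of all genes had this order. Psmc3 had 22.6 and 12.5 in the males, against 65.0 and 36.2 in the females, with no peak called in either male (-1.15 ± 0.40, adjusted p = 0.0974). Psmc5 had 33.9 and 15.8 in the males, against 54.0 and 39.9 in the females (-0.77 ± 0.40, adjusted p = 0.17). Psmc4 was nearly level, at 24.7 and 31.6 in the males, against 32.0 and 32.9 in the females (-0.16 ± 0.40, adjusted p = 0.72), which is 0.47 above the median of all genes.

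Among the 11 non-ATPase subunits, 6 (54.5%) had both males below both females, against 76.4% of all genes, and 5 overlapped. Psmd14, the enzyme that cuts ubiquitin chains off the substrate, had 16.3 and 3.67 in the males, against 24.0 and 23.8 in the females (-0.88 ± 0.35, adjusted p = 0.12), with a peak called in female 1 alone. Psmd12, a scaffold subunit of the 19S lid, had 25.8 and 22.4 in the males, against 53.0 and 44.8 in the females (-0.81 ± 0.40, adjusted p = 0.16). Psmd8, another lid subunit, had 24.7 and 32.3 in the males, against 47.0 and 40.3 in the females (-0.49 ± 0.40, adjusted p = 0.31), and this was 0.14 above the median of all genes.

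Psme1 and Psme2, the subunits of the interferon-inducible 11S activator, are neighbours and had the same linked regions, together with Emc9, so their heights are 1 measurement. These were 38.4 and 22.8 in the males, against 56.0 and 40.3 in the females (-0.54 ± 0.41, adjusted p = 0.27). The region 30 bp before the start of Psme1 held a peak in female 1 alone, while the region 3 bp before the start of Psme2, 12578 bp from that of Psme1, held a peak in all 4 libraries. Its summit height was 53.7 in male 1 and 34.5 in male 2, against 84.0 in female 1 and 61.7 in female 2. The assembly chaperone Psmg1 had 17.7 and 13.2 in the males, against 46.0 and 27.1 in the females (-0.87 ± 0.38, adjusted p = 0.13). Its partner Psmg2 had 14.8 and 12.8 in the males, against 15.5 and 15.6 in the females (-0.11 ± 0.35, adjusted p = 0.80). The males were still both below the females. These heights were low, at percentile 3.90 of all genes in female 1 and 9.26 in female 2, where adding 9 understates a difference. They average 2 regions, and the nearer region, 33 bp inside the gene, held a peak in male 1 alone.

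Among the Hsp70 and Hsp110 genes, both males were below both females at 13 of 13, against 76.4% of all genes, and 0 were called by limma, against 0.592% of all genes lower in males. Among the 13, Hspa1a shares its regions with Hspa1b and Hspa1l, so these values are not independent. At an unadjusted p under 0.05, 6 of the 13 had lower values in males (46.2%, against 31.4% of all genes) and 0 had higher values. Their median difference was -0.76, against -0.63 for all genes. Hspa8, the constitutive cytosolic Hsp70, was among the most open members, at 56.6 and 58.7 in the males, against 88.0 and 74.8 in the females. It stood at percentile 98.8 of all genes in male 1 and 99.2 in male 2, against 98.2 in female 1 and 98.8 in female 2. Its difference was -0.44 ± 0.41 (adjusted p = 0.36), 0.19 above the median of all genes. Hspa2, an Hsp70 best known from the male germ line, had 56.6 and 25 in the males, against 106 and 73.2 in the females (-1.04 ± 0.41, adjusted p = 0.11). Hspa13, a microsomal Hsp70, had 32.5 and 13.2 in the males, against 66.0 and 46.0 in the females (-1.08 ± 0.40, adjusted p = 0.11). Hsph1, the Hsp110 that releases nucleotide from Hsp70, had 48.1 and 23.5 in the males, against 72.0 and 56.7 in the females (-0.76 ± 0.41, adjusted p = 0.17).

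The stress-inducible Hsp70 genes stood below the median of all genes in male 1 and both females, and above it in male 2. Hspa1a was at percentile 36.3 in male 1 and 62.0 in male 2, against 21.2 in female 1 and 29.0 in female 2. Hspa1b was at percentile 36.3 in male 1 and 72.2 in male 2, against 15.8 in female 1 and 20.6 in female 2. Hspa1a had 20.5 and 17.3 in the males, against 26.5 and 23.4 in the females (-0.29 ± 0.37, adjusted p = 0.51). Hspa1b had 20.5 and 19.8 in the males, against 24.0 and 20.6 in the females (-0.10 ± 0.37, adjusted p = 0.82). Peaks at Hspa1b were called in both males and in no female, although the heights in the males were the lower ones. The order of the sexes at Hspa1b was nearly a tie, with 20.499 in male 1 against 20.551 in female 2. Relative to all genes, the differences of Hspa1a and Hspa1b were 0.34 and 0.53 above the median. The genes are near-identical neighbours on chromosome 17, and a region at the start of Hspa1b was linked to both, so reads could be split between them and their values are uncertain.

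Hsp90aa1, the inducible cytosolic Hsp90, had 30.4 in male 1 and 51.4 in male 2, against 62.0 in female 1 and 33.7 in female 2. The sexes overlapped (-0.17 ± 0.41, adjusted p = 0.71), and the difference was 0.13 without male 1 and 0.19 without female 1. Its constitutive counterpart Hsp90ab1 had 25.2 and 13 in the males, against 36.3 and 29.9 in the females (-0.61 ± 0.38, adjusted p = 0.21). The region 51 bp before the start of Hsp90ab1 held a peak in female 1 alone, and its regions were shared with the neighbour Slc35b2. The only region linked to Hsp90b1, the Hsp90 of the endoplasmic reticulum, lay 19940 bp downstream of its start, so that its height was not measured at its promoter.

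Hspd1 and Hspe1 encode the mitochondrial chaperonin and its lid and are transcribed in opposite directions from a shared promoter. A single region, chr1:55087899-55088348, served both, with a peak in all 4 libraries. Its height was 34.6 in male 1 and 36.0 in male 2, against 77.0 in female 1 and 53.4 in female 2 (-0.73 ± 0.41, adjusted p = 0.18). In the cytosolic chaperonin, which folds actin and tubulin, Tcp1 was the most open subunit gene, at 58.0 and 31.6 in the males, against 82.0 and 82.2 in the females (-0.81 ± 0.41, adjusted p = 0.16). Its region was shared with Mrpl18 and other neighbours. Cct6a had 22.6 and 15.2 in the males, against 45.7 and 35.6 in the females (-0.84 ± 0.39, adjusted p = 0.14). Both males were below both females at 6 of the 7 subunit genes of this chaperonin (85.7%, against 76.4% of all genes).

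Among J proteins, Dnajb1, the main J partner of Hsp70 in the heat shock response, differed between the males. Averaged by the authors over its 3 regions, its height was 17 in male 1 and 45.8 in male 2, against 39.3 in female 1 and 33.4 in female 2 (-0.26 ± 0.40, adjusted p = 0.57). Male 2 was the highest library and male 1 the lowest, and without male 1 the difference was 0.27. The region at its start, chr8:83607907-83608336, was the only 1 of the 3 with a peak in each library. Its summit height there was 31.1 in male 1 and 109 in male 2, against 70.0 in female 1 and 60.8 in female 2. Among all intervals of its library, that summit stood at percentile 51.5 in male 1 and 99.9 in male 2, against 91.2 in female 1 and 92.0 in female 2. This region was examined after its values were seen.

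**Figure D4:**
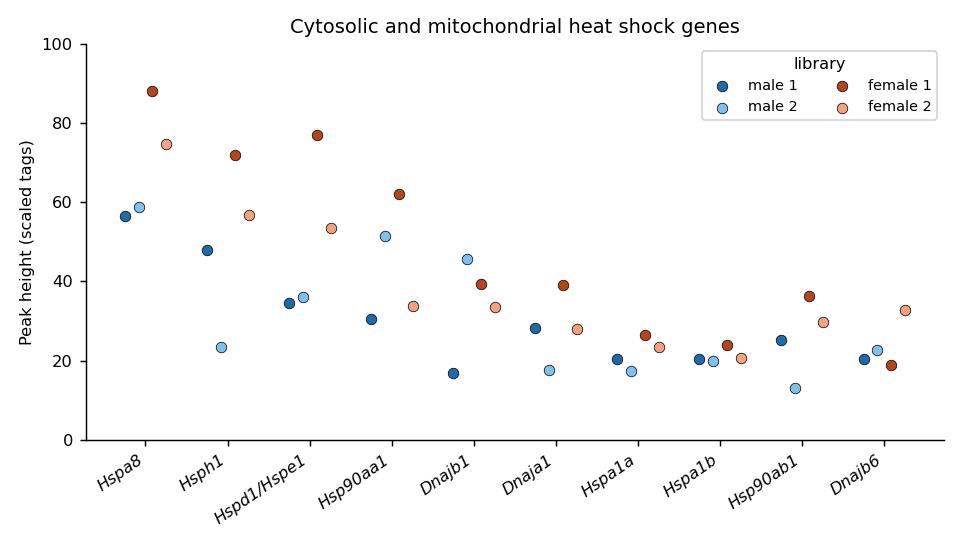
Peak height (scaled tags, y axis) in each library of 9 heat shock genes and the shared Hspd1/Hspe1 region. At Dnajb1 the highest point is male 2 (45.8) and the lowest male 1 (17), while at Hspa8, Hsph1 and Hspd1/Hspe1 both males lie below both females.

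Dnajc3, a J protein of the endoplasmic reticulum that also binds the kinase PERK, had the smallest adjusted p of all members. Its height was 39.6 in male 1 and 21.3 in male 2, against 93.0 in female 1 and 69.9 in female 2 (-1.23 ± 0.41, adjusted p = 0.0967). Dnajb5 came next, with 48.1 and 24.2 in the males, against 110 and 77.3 in the females (-1.22 ± 0.41, adjusted p = 0.0968). Its linked region lay 3318 bp before the start given in the gene table. The region held the whole promoter window used for Dnajb5 in the sequence search below, which has another annotated start. Dnajb11, which serves the Hsp70 of the endoplasmic reticulum, had 45.2 and 27.9 in the males, against 62.0 and 46.9 in the females (-0.49 ± 0.41, adjusted p = 0.32).

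The J proteins of class A, which resemble bacterial DnaJ, were covered by 4 genes. Dnaja1, the cytosolic one induced by heat, had 28.3 and 17.6 in the males, against 39.0 and 27.9 in the females, with overlap (-0.42 ± 0.39, adjusted p = 0.36). Dnaja3, the mitochondrial one, had 31.8 and 14.7 in the males, against 51.0 and 49.3 in the females (-0.93 ± 0.40, adjusted p = 0.13), at a region 4230 bp before its start. Dnaja4 was barely open, with 3.53 and 2.94 in the males, against 18 and 8.22 in the females (-0.82 ± 0.33, adjusted p = 0.12), and a peak was called in female 1 alone. Dnajc6, which strips clathrin from vesicles in neurons, gave the tallest member peak of male 1, at 69.3 and 53.6 in the males, against 109 and 74.0 in the females (-0.50 ± 0.40, adjusted p = 0.30). That region lay 150616 bp downstream of the start of Dnajc6 and was also linked to Leprot, named for its overlap with the leptin receptor gene.

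Small heat shock proteins hold unfolding proteins in solution, and none of their 3 genes in the table had a region within 500 bp of its start. Hspb1 had 15.2 and 14.0 in the males, against 25 and 17.7 in the females (-0.35 ± 0.36, adjusted p = 0.40). Its regions, 7919 and 8175 bp before its start, were shared with Srrm3. The nearer held a peak in male 1 alone and the farther in male 2 alone, although the heights in the males were the lower ones. Hspb2 had 10.6 and 8.81 in the males, against 29.0 and 21.4 in the females (-0.86 ± 0.36, adjusted p = 0.13), at a region shared with its neighbour Cryab, another small heat shock gene. Hspb6, known from muscle, had 32.8 and 18.6 in the males, against 49.3 and 32.3 in the females, with overlap (-0.53 ± 0.40, adjusted p = 0.27). Among the other genes taken by name, Hspb11 had 29.7 and 17.6 in the males, against 58.0 and 67.4 in the females (-1.16 ± 0.41, adjusted p = 0.0992). Hspg2 had 19.4 and 10.1 in the males, against 38.8 and 30.0 in the females (-0.89 ± 0.38, adjusted p = 0.13). Hspbp1, which releases nucleotide from Hsp70, had 25.9 and 14.9 in the males, against 37.7 and 28.5 in the females (-0.53 ± 0.39, adjusted p = 0.26).

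The males differed from each other at a group of members that was singled out after the values were seen. Male 2, whose heights were lower in general, exceeded male 1 at 23 of 113 members (20.4%), against 14.3% of all genes. It was the highest of the 4 libraries at 4 members (3.54%), against 2.68% of all genes: Psma5, Dnajb1, Dnajc1 and Psmd11. The first pair is described above. Dnajc1, a J protein of the endoplasmic reticulum, had 24.0 in male 1 and 41.1 in male 2, against 33.0 in female 1 and 14.8 in female 2. Psmd11, a 19S lid subunit, had 26.9 in male 1 and 39.7 in male 2, against 38.5 in female 1 and 37.4 in female 2. The intervals called at member regions were also wider in male 2, with a median of 312.5 bp, against 202 bp in male 1, 178 bp in female 1 and 195.5 bp in female 2.

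**Figure D5:**
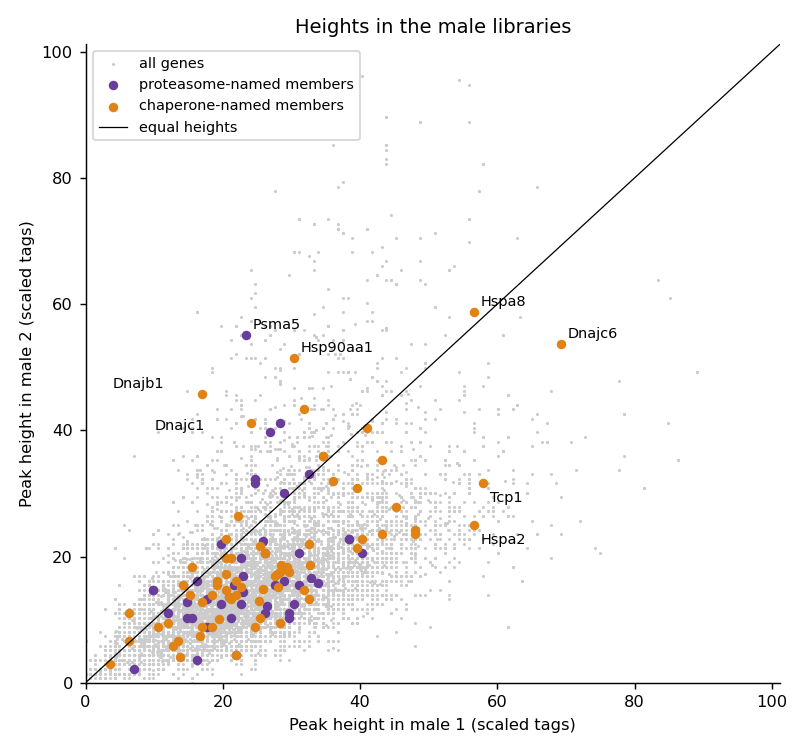
Peak height in male 2 (y axis) against male 1 (x axis), both in scaled tags, for all genes (grey), proteasome-named members (purple) and chaperone-named members (orange), with the line of equal heights. Above the line lie 23 members, among them Psma5 (55.1 against 23.3), Hsp90aa1 (51.4 against 30.4) and Dnajb1 (45.8 against 17).

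Promoter sequences came from RefSeq (GRCm38.p6, the release of mm10), 250 bases before to 50 after an annotated start. They were matched by gene identifier for 92 of the 113 members and 9165 of all genes. Where a gene had several windows, that with the most bases in a linked region was used. Its start can then differ from the one in the gene table. The windows were searched on both strands for the letters of known elements, and a match describes the letters and is not a bound site. The heat shock element is made of units in turn: GAANNTTC (head to head) was in 14 member promoters (15.2%), against 5.71% of all, and TTCNNGAA (tail to tail) was in 8 (8.70%), against 6.71%. A run of 3 units, which contains both of these, was in 4 (4.35%), against 0.535% of all: those of Hspd1, Hspe1, Hsph1 and Dnajb6, of which Hspd1 and Hspe1 hold the same stretch. The element TGACNNNGC, bound by cap'n'collar factors with small Maf proteins, was in 18 (19.6%), against 15.1%. It was in 6 of the 37 proteasome-named promoters (16.2%), near the share of all, and in 12 of the 55 chaperone-named ones (21.8%). The ER stress element (CCAAT, 9 free bases and CCACG, so that it contains a CCAAT box) was in those of Dnajc3 and Hsp90b1 (2.17%), against 0.185%.

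The general elements were about as frequent as elsewhere. CCAAT was in 33 member promoters (35.9%), against 40.2% of all, and the GC box GGGCGG was in 65 (70.7%), against 66.1%. The NRF1 element GCATGCGC, of a factor unrelated to NFE2L1 despite its name, was in 4 (4.35%), against 5.77%, and TATAAA was in 4 (4.35%), against 6.42%. None of these shares was tested. A linked region overlapped the window in 80 of the 92 member promoters, against 6438 of the 9165 promoters of all genes. Choosing windows by their overlap can raise both counts.

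The promoters printed here carry the elements named above or the values singled out above, with matches in capitals except the GC box. Positions are counted from 0 at the RefSeq start of the window used. That of Hspe1 (chr1:55087898-55088197, plus strand) lies in the region shared with Hspd1 and holds the run of units around position -84. That of Hsph1 (chr5:149636287-149636586, minus strand) holds its run at position 36, past the start, and further elements upstream. That of Dnajb6 (chr5:29735729-29736028, plus strand) holds a run at -127, and its height was 20.5 in male 1 and 22.8 in male 2, against 19 in female 1 and 32.9 in female 2. That of Dnajc3 (chr14:118937682-118937981, plus strand) holds the ER stress element at -105 and a CCAAT box on the other strand at -45. That of Dnajb1 (chr8:83607925-83608224, plus strand), which lies wholly in the region that was tallest in male 2, holds TGACNNNGC and a pair of CCAAT boxes but neither heat shock unit in these letters. That of Psmb5 (chr14:54617946-54618245, minus strand), chosen after its matches were seen, holds TGACNNNGC at -47 and GAANNTTC at -242.
Hspe1: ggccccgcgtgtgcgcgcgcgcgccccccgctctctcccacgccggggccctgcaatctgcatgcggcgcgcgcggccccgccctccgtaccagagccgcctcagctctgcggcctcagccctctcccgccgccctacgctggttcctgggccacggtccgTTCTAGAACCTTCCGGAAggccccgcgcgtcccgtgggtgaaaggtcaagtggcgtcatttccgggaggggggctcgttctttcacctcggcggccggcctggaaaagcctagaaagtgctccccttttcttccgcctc
Hsph1: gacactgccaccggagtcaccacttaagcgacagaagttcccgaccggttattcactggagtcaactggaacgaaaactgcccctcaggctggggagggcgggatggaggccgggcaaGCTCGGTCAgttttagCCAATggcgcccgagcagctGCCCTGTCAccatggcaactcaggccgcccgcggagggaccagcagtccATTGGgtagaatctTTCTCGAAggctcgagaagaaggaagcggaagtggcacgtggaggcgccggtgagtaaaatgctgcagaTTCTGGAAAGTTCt
Dnajb6: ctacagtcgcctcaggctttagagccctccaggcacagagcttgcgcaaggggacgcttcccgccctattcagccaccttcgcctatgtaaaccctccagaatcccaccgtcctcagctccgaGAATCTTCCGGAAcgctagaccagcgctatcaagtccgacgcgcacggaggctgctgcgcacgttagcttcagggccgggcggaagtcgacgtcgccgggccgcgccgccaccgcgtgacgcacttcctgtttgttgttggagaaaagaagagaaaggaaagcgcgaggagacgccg
Dnajc3: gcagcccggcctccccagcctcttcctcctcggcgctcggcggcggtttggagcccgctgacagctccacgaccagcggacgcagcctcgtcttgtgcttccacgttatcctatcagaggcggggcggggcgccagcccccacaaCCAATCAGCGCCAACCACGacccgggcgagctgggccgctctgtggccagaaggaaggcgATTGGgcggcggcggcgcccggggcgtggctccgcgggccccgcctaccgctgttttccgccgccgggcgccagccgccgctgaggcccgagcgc
Dnajb1: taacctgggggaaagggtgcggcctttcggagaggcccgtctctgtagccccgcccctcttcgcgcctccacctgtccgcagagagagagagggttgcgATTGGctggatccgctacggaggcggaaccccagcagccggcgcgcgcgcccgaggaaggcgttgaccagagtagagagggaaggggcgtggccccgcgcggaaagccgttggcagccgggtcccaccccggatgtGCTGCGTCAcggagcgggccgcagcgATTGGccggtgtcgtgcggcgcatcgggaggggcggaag
Psmb5: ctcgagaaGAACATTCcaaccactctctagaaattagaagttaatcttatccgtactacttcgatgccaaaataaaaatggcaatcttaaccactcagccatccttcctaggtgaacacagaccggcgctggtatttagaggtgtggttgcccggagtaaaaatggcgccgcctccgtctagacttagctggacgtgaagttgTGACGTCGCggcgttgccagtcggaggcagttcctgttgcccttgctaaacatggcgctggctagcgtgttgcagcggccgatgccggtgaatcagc

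The regulators and partners of these machines, from lists of genes chosen with the members, were not called either. Of 83 such genes in the table, 0 were called in either direction by limma, against 0.592% of all genes lower in males. An unadjusted p under 0.05 with lower values in males was found at 22 (26.5%, against 31.4% of all genes), and both males were below both females at 64 (77.1%, against 76.4% of all genes). Hsf1, the heat shock factor, had heights of 30.4 and 17.6 in the males, against 71.0 and 54.3 in the females (-1.14 ± 0.41, adjusted p = 0.10). Nfe2l1 was among the most open of them, at 71.4 and 33.8 in the males, against 95.0 and 91.2 in the females (-0.80 ± 0.41, adjusted p = 0.16). Bag3, the cochaperone of selective autophagy, had 26.9 in male 1 and 39.3 in male 2, against 39.0 in female 1 and 33.3 in female 2 (-0.11 ± 0.40, adjusted p = 0.81). Akirin2, which carries proteasomes into the nucleus, had 33.9 in male 1 and 54.3 in male 2, against 39.0 in female 1 and 37 in female 2 (0.15 ± 0.41, adjusted p = 0.75). Bag3 and Akirin2 were picked after their values were seen. At both, as at Dnajb1, male 2 was the highest library and male 1 the lowest, though at Bag3 male 2 and female 1 were nearly level. Male 2 was the highest library at 4 of the 83 genes (4.82%, against 2.68% of all genes), the others being Tbca and Ubqln1.

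Some of the heights are shared measurements. All linked regions were shared with another gene at 50 members (44.2%), against 39.5% of all genes, and the 113 members held 109 separate sets of regions. Within the members, Hspd1 with Hspe1, Psmc2 with Dnajc2, Psme1 with Psme2, and Psmb5 with Psmb11 each carry 1 measurement. The regions of Hspa1a were the sole linked region of Hspa1b and the sole linked region of Hspa1l, so its heights add no separate measurement. Psmb11, the thymus-specific beta subunit, owes its value to a region 7038 bp before its start that lies 21 bp before the start of Psmb5. The mitochondrial Hsp70 gene Hspa9 was likewise linked only to a region 22191 bp downstream of its start, near Etf1.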

How the data were processed

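ATAC-seq of 2 male and 2 female samples was deposited as a gene table and peak tracks. The submitters' processing notes name BWA, MACS2 2.1.0 and mm10. How reads were filtered, deduplicated or shifted for Tn5 was not given in the sources used here. Per the file headers, the authors called peaks in each library and merged them into regions. Their deposited signal is a coverage height, the tags stacked at a peak, given per gene as a mean over its linked regions and scaled per library on a basis that is not given. Another deposited column marks whether a peak was called. All per-library columns were used, with 0 left out.

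Heights were compared as log2(height + 9), where 9 lies just above the 5th percentile of the heights over 0. Adding 9 understates the change of low genes. All 11993 genes had a height above 0 in at least 2 libraries. limma 3.58.1 in R 4.3.3 was fitted with a trend and no block, with Benjamini-Hochberg adjusted p under 0.05 as the threshold. Its steps were tested on simulated data. Regions and intervals were joined with bedtools 2.31.1 at an overlap of at least 1 bp. Summits and coordinates (mm10, counted from 1) come from the tracks. Percentiles are among all genes or intervals of the library. No 2 libraries held the same values.

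The members, roles and lists were chosen with earlier results of these data known. The text names the members that passed the test (0), in each role the 2 with the greatest mean height and the 1 with the smallest p, the 3 highest and 3 lowest differences without overlap, and well-known stress and inducible genes; others are said to have been chosen after their values were seen, or are given for a shared or distant region. Precision is limited by 2 samples a sex. Alternatives changed the added value, filter, scaling, block, trend, shared regions and each library in turn.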

Additional observations from a re-analysis of the deposited data

How the results depend on the processing

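The count of members called lower in males was 0, and it stayed at 0 with an added value of 1 or of 4 times the usual 9, with no filter or a filter at the 25th percentile, with median centring or quantile normalization, and with 1 value per set of regions. It was 57 with the replicate block and 4 without the trend, and between 0 and 52 when each library was left out in turn, 52 being the count without male 1. Members called higher in males numbered 0 under each of these settings. The labels gave replicate numbers but did not say whether same-numbered samples were paired. Deviations of same-numbered samples from the group means had a correlation of 0.0166 over the 11993 genes, which are not independent. Such a correlation does not reflect a shift common to all genes, so it cannot show whether the samples were paired. The median height over all genes was 38 in female 1 and 30.2 in female 2, and 24.0 in male 1 and 14.7 in male 2. The count with the replicate block is given for completeness. The members' median difference relative to all genes lay between 0.0099 and 0.084. Without 1 library in turn, the difference of Dnajb1 ran from -0.80 to 0.27, and that of Hsp90aa1 from -0.54 to 0.19, with 0.13 without male 1; the cause was not tested. Regions of members with a peak in all libraries numbered 47, or 25 where the summit had to reach the median of its library, a stricter rule by construction, and 47 to 71 without 1 library in turn. The fits without 1 library have 1 sample in a sex, which is assumed to vary as the other sex does. With 2 samples a sex, the smallest adjusted p of a member was 0.0967.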
